A study of Mus musculus with 6 samples.

Results

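The genes described here are 10 regulators of cytokine mRNA stability, taken by symbol from expression tables of the Lewis line, which was grown from a mouse lung carcinoma. They are the stabilizers Arid5a and Elavl1, and the 8 decay factors Zc3h12a, Rc3h1, Rc3h2, Zfp36, Zfp36l1, Zfp36l2, Khsrp and Hnrnpd. All 10 were among the 16081 listed genes, and all 10 passed the filter on low counts, as did 11552 genes in all. RNA-seq was carried out on 3 samples kept for 24 hours in the vehicle DMSO and 3 samples kept for the same time in SD70, an inhibitor of the histone demethylase KDM4C. The labels name no knockdown in either group, and the SD70 dose of this experiment is not given in the sources used here. The question of the comparison was which transcripts differ when KDM4C is inhibited. The set was chosen by symbol with the counts and FPKM of this same comparison in view, so the members' differences between the groups are given as a description, and the number of them past a threshold is set beside the share of all genes as a description too, not as a test of the set.

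The half-life of many cytokine and chemokine mRNAs is set by proteins that bind their 3′ UTR. Tristetraprolin (Zfp36) and its paralogues Zfp36l1 and Zfp36l2 bind AU-rich elements and recruit the CCR4-NOT deadenylase, and KSRP (Khsrp) and AUF1 (Hnrnpd) also bring AU-rich transcripts to decay. Regnase-1 (Zc3h12a) is an endonuclease that cuts stem-loops, and the roquins (Rc3h1 and Rc3h2) bind similar stem-loops and recruit deadenylases. HuR (Elavl1) binds AU-rich and U-rich elements and protects the transcript, and ARID5A binds stem-loops in transcripts such as Il6 and counteracts Regnase-1. Inflammatory signals raise several of these factors together with their targets, so stabilizers and decay factors are often read side by side.

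Totals ranged from 15276744 to 17060424 counts per sample, and SD70 sample 3 was the smallest. Normalized counts are counts scaled by edgeR's TMM factors to the mean library size of the 6 samples, and FPKM is scaled by transcript length and library size, so that levels of different genes can be compared on it. Of the 15 immune cell markers examined, 9 were listed, with summed counts of 278 to 292 in the DMSO samples and 195 to 222 in the SD70 samples, most of them from Cd68. Of the 3 tested, Cd68 fell by 0.48 on the log2 scale (adjusted p = 0.000121 from edgeR). Lyz2 had a log2 difference of 0.79 and Cd79a of -0.79, at low counts (adjusted p = 0.0256 and 0.0922 from edgeR). Ptprc, which marks all leukocytes, had 0, 0 and 0 counts under DMSO, against 2, 1 and 2 under SD70, and Csf1r had at most 1. The line's carcinoma label was checked against 7 markers, of which Krt8 had 3916 ± 105 and Vim 67767 ± 3694 normalized counts under DMSO (SD, n = 3 each), while Epcam and Cdh1, which define epithelial cells, had at most 1 count in any sample. Krt8, Krt18 and Vim fell by 0.55, 1.22 and 0.47 on the log2 scale (adjusted p = 3.28e-11, 2.97e-07 and 6.69e-10 from edgeR), and Hmga2 rose by 0.47 (adjusted p = 3.42e-10 from edgeR). The summed counts of these 7 ran from 89140 to 96598 under DMSO and from 70448 to 78594 under SD70, and those of 8 stromal and endothelial markers from 3489 to 3566 and from 3311 to 3450. Within the latter, Pdgfrb rose by 1.54 and Pdgfra fell by 1.00 on the log2 scale (adjusted p = 2.09e-17 and 9.33e-17 from edgeR). The part of these markers in the results was not tested. Bulk RNA does not tell a change in the share of cells that express a gene from a change in RNA per cell. Nothing in the labels says that the 3 samples of a group came from separate cultures, so the p-values below measure the spread between these samples.

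In SD70-treated cells Arid5a was 6.99-fold higher than in DMSO-treated cells and Zc3h12a, which encodes its opponent Regnase-1, was 1.85-fold higher. Elavl1 and Zfp36l1 were 1.20-fold and 1.16-fold higher, and Zfp36l2 was at 0.799 of its DMSO level. The other 5 decay factors lay between 0.931 and 1.07 of their DMSO level, and their groups overlapped in normalized counts, whereas in FPKM those of Khsrp and Hnrnpd did not. At an adjusted p under 0.01 in edgeR's quasi-likelihood test, 5 of the 10 genes passed, 4 higher and 1 lower, beside 49.9% of all genes tested (25.8% higher and 24.2% lower). With a log2 fold change of at least 1 added, 1 of the 10 passed, Arid5a, beside 5.90% of all genes (3.29% higher and 2.61% lower). The groups did not overlap in normalized counts in 5 of the 10, beside 64.4% of all genes tested. The contrast was known when the genes were chosen, so nothing is read from these shares.

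**Figure D1:**
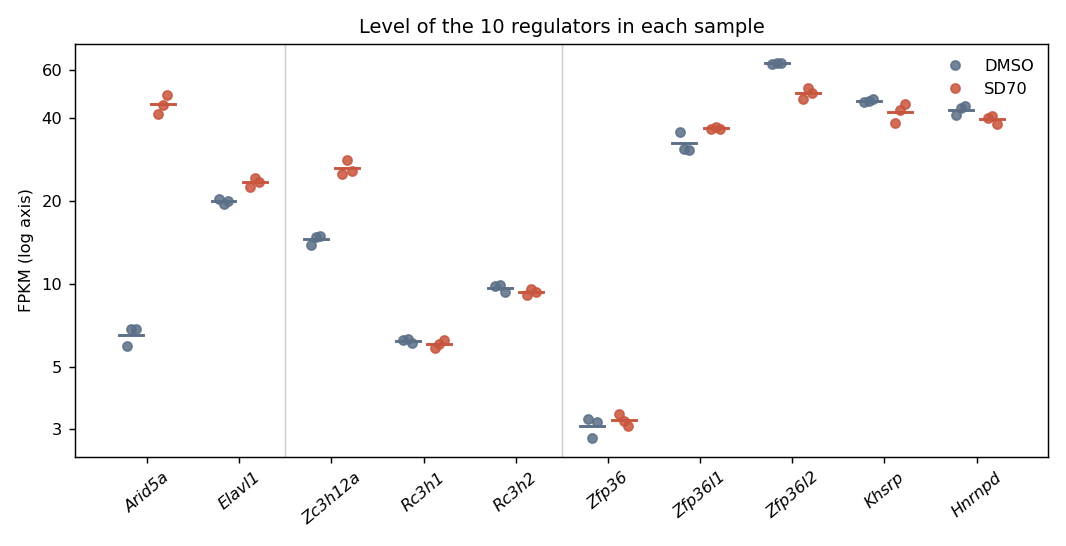
FPKM (log axis) of the 10 regulators in the 3 DMSO and 3 SD70 samples; points are samples, bars are means, and grey lines separate stabilizers, endonuclease and stem-loop decay factors, and AU-rich element decay factors. Arid5a moves from 5.96 to 6.88 FPKM under DMSO to 41.5 to 48.7 under SD70, while Rc3h1, Rc3h2 and Zfp36 lie close together in both groups.

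Arid5a (NCBI Gene 214855) lies on chromosome 1 of GRCm38.p6 from 36307733 to 36324037. It encodes an AT-rich interactive domain protein that was known as a DNA-binding factor before it was found to bind mRNA. Its normalized counts were 539, 621 and 623 under DMSO, and under SD70 they were 3850, 4113 and 4513. The SD70 samples were all several times above the highest DMSO sample, and the gap between the groups was far wider than the spread within them. The log2 fold change was 2.81 (standard error, SE, 0.0653), which placed it at rank 29 of the 11552 genes tested, counted from the highest value. The relative spread was alike in both groups, 8.08% of the mean under DMSO and 8.02% under SD70. On the FPKM scale its level was 6.57 ± 0.531 under DMSO and 44.9 ± 3.64 under SD70 (SD, n = 3 each). The transcript length that counts and FPKM imply for Arid5a was between 5511 and 5538 bases in all 6 samples, so both scales gave the difference alike.

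The promoter of Arid5a, 250 bases before to 50 after the start site in RefSeq, is printed with that of Zc3h12a, because these were the members with the largest differences and both were higher. Capitals mark the letters GGGCGG on either strand, which were found 3 times in the Arid5a promoter and 5 times in the Zc3h12a promoter (build GRCm38.p6).
Arid5a, chr1:36307483-36307782, plus strand: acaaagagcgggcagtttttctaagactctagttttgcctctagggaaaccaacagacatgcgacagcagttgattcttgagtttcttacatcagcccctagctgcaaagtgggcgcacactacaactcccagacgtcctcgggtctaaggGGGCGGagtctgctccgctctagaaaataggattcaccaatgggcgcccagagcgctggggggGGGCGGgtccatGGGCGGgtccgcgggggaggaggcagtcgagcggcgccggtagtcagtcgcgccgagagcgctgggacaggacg
Zc3h12a, chr4:125127832-125128131, minus strand: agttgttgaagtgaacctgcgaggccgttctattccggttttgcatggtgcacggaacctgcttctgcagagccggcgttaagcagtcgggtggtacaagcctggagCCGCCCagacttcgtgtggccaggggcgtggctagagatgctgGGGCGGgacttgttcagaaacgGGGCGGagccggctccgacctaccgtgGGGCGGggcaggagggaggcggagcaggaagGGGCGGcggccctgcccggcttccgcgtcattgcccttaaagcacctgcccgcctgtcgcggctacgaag
RefSeq promoters were found for 9 of the 10 members, all but Zfp36l2. The letters GGGCGG stood in 6 of these 9, and in 35.7% of all 32851 promoters of the table. GC content was 60.3% in Arid5a and 65.7% in Zc3h12a, and the median was 65.7% over the members and 52.7% over all promoters. The other letters searched, on both strands, were TGACTCA (AP-1), found in Rc3h1 alone and in 5.20% of all promoters, and TATAAA, found in Zfp36l1 alone and in 13.6%. An NF-kB consensus (0.411% of all promoters), the cyclic AMP response element TGACGTCA (1.79%) and the composite C/EBP-ATF element TGATGCAAT (0.192%) were found in 0 of the 9. A match is a description of letters and not a site in use, and 300 bases leave out any more distant element.

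The genes next to Arid5a were examined after its values were seen, and those next to the other members are not reported here. Of all genes tested, 49.9% passed an adjusted p of 0.01 in edgeR's test, so a neighbour that passes is not unusual. Of the genes that start or end within 100 kb of it and are listed, Neurl3, which encodes an E3 ubiquitin ligase, lies 33059 bases away on chromosome 1 from 36264602 to 36274674. Neurl3 had 2261, 2405 and 2437 normalized counts under DMSO, against 8552, 8987 and 9731 under SD70, without overlap. Its log2 difference was 1.94 (SE 0.0543; adjusted p = 1.32e-25 from edgeR). Kansl3, a subunit of the NSL histone acetyltransferase complex, lies 11693 bases away on the other side and also rose, with a log2 difference of 0.51 (SE 0.0516; adjusted p = 2.21e-10 from edgeR). Lman2l, further out, rose by 0.33 on the log2 scale (SE 0.0709; adjusted p = 0.000175 from edgeR). Uggt1 had a log2 difference of 0.15 (adjusted p = 0.00879 from edgeR), which was past the threshold in 5 of 14 alternatives (adjusted p from 0.00229 to 0.0959 over them). Fer1l5 had 0.18 (SE 0.300; adjusted p = 0.621 from edgeR) at 13.9 to 20.9 normalized counts.

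Neurl3 was also among the 3 genes whose log2 CPM followed Arid5a most closely over the 6 samples. They were Tsc22d3, a glucocorticoid-induced leucine zipper gene, with Pearson r = 0.9999, Mrps2, a mitochondrial ribosomal protein gene, with 0.9999, and Neurl3 with 0.9998. The 6 points are 2 groups of 3, and 478 of 11551 genes had an r of at least 0.99. Tsc22d3 had 514, 566 and 574 normalized counts under DMSO, against 2339, 2398 and 2568 under SD70. Within each group its order over the samples was that of Arid5a, which its choice by r over these same samples favours. Its log2 difference was 2.14 (SE 0.0608; adjusted p = 1.94e-25 from edgeR), whereas that of Mrps2 was 0.40 (SE 0.0559; adjusted p = 1.86e-07 from edgeR).

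Elavl1 (NCBI Gene 15568), on chromosome 8 from 4284781 to 4325140, encodes the second stabilizer, HuR. Its normalized counts were 1961, 1870 and 1928 under DMSO, against 2215, 2371 and 2313 under SD70. The groups did not overlap, but they were close, with the lowest SD70 sample at 2215 and the highest DMSO sample at 1961 normalized counts. On the log2 scale this came to 0.26 (SE 0.0519). The stabilizers thus shared a direction and differed in size, with Arid5a 6.99-fold and Elavl1 1.20-fold higher.

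Zc3h12a (NCBI Gene 230738), on chromosome 4 from 125118414 to 125127881, had the second largest difference of the 10 genes. Its normalized counts were 600, 637 and 651 under DMSO, against 1106, 1247 and 1136 under SD70. The SD70 samples were all well above the DMSO samples. Its log2 fold change was 0.89 (SE 0.0632), rank 524 of all genes tested. In DMSO-treated cells Arid5a and Zc3h12a had similar counts, 594 ± 48.0 and 630 ± 26.3 normalized counts (SD, n = 3 each), although per length Zc3h12a was the more abundant, at 14.6 ± 0.573 FPKM.

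The roquins stayed close to their DMSO level. Rc3h1 (NCBI Gene 381305, chromosome 1, 160906411 to 160974976) had 1088, 1096 and 1081 normalized counts under DMSO, against 1038, 1063 and 1121 under SD70. Rc3h2 (NCBI Gene 319817, chromosome 2, 37368861 to 37424370) had 1417, 1428 and 1350 under DMSO, against 1354, 1414 and 1388 under SD70. In both genes the groups overlapped. The log2 fold change was -0.02 (SE 0.0570) for Rc3h1 and -0.01 (SE 0.0544) for Rc3h2.

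Within the tristetraprolin family the 3 paralogues differed in level and in direction. Zfp36 (NCBI Gene 22695, chromosome 7, 28376784 to 28379228), the founding member and an immediate early gene in many cells, had 84.8, 71.9 and 83.4 normalized counts under DMSO, against 90.3, 85.4 and 81.4 under SD70. These were the lowest counts of the 10 genes, and the groups overlapped. Its log2 fold change was 0.10 (SE 0.146), the least precise of the 10.

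Zfp36l1 (NCBI Gene 12192, chromosome 12, 80107760 to 80113013) had 1636, 1418 and 1421 normalized counts under DMSO, against 1727, 1758 and 1716 under SD70. The groups did not overlap, although DMSO sample 1 lay nearer to the SD70 samples than to the other DMSO samples. The log2 fold change was 0.22 (SE 0.0573). It lay between 0.17 and 0.29 when single samples were left out, and without DMSO sample 2 or without DMSO sample 3 the number of members past the adjusted p of 0.01 was 4 in place of 5, since Zfp36l1 was not among them.

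Zfp36l2 (NCBI Gene 12193, chromosome 17, 84183924 to 84187947) had 3456, 3486 and 3501 normalized counts under DMSO, against 2664, 2908 and 2773 under SD70. All SD70 samples were below all DMSO samples, and the DMSO samples varied by 0.655% of their mean. In log2 terms the difference was -0.32 (SE 0.0498). Of the 5 members whose groups did not overlap it was the 1 that was lower, and per length it was the most abundant of the 10 in both groups.

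Khsrp (NCBI Gene 16549, chromosome 17, 57021049 to 57031507) had 2865, 2884 and 2953 normalized counts under DMSO, against 2477, 2742 and 2882 under SD70. SD70 sample 3 reached into the DMSO range, and the log2 fold change was -0.10 (SE 0.0534). Hnrnpd (NCBI Gene 11991, chromosome 5, 99955935 to 99979130) had 4554, 4796 and 4872 under DMSO, against 4571, 4594 and 4317 under SD70, with a log2 fold change of -0.08 (SE 0.0495). Its groups overlapped in normalized counts through DMSO sample 1. In FPKM neither gene's groups overlapped, and all SD70 samples were lower, by a narrow gap (for Hnrnpd, the lowest DMSO sample was at 41.0 and the highest SD70 sample at 40.6). Hnrnpd overlaps 4930524J08Rik and Gm42127 in RefSeq, as Rc3h2 holds Snord90, and whether reads were assigned by strand is not given in the sources used here. All counts of the 10 genes, the paralogues included, were whole numbers, whereas 8.84% to 9.28% of all values per sample were not.

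**Figure D2:**
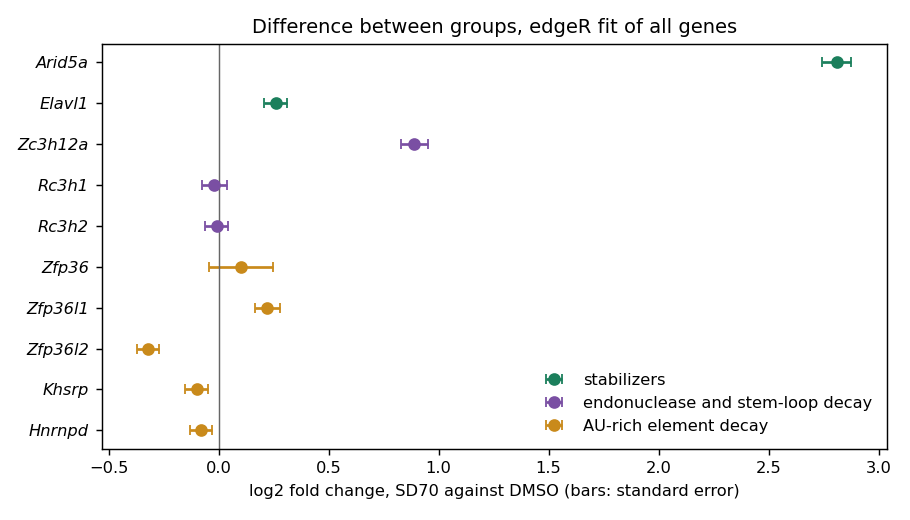
log2 fold change of SD70 against DMSO for the 10 regulators, from edgeR's fit of all genes; points are estimates, bars are standard errors and colours are roles. Arid5a stands at 2.81 and Zc3h12a at 0.89, and the other 8 lie between -0.32 and 0.26.

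The order of the members by FPKM showed how far Arid5a moved among them. In DMSO-treated cells the order was Zfp36l2 with 63.2, Khsrp with 46.3, Hnrnpd with 42.9, Zfp36l1 with 32.4, Elavl1 with 20.0, Zc3h12a with 14.6, Rc3h2 with 9.70, Arid5a with 6.57, Rc3h1 with 6.25 and Zfp36 with 3.07 FPKM. Arid5a and Rc3h1 were the only neighbours in that order whose samples overlapped. With SD70, Arid5a went from place 8 to place 2, behind Zfp36l2 at 49.3 ± 2.24 FPKM (SD, n = 3) and ahead of Khsrp at 42.1 ± 3.28 FPKM (SD, n = 3). Its range over samples overlapped both, while within each of the 3 SD70 samples it was below Zfp36l2 and above Khsrp. Zc3h12a, at 26.4 ± 1.70 FPKM (SD, n = 3), passed Elavl1, at 23.4 ± 0.856 (SD, n = 3).

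The stabilizers were then set against the decay factors within each sample. Arid5a stood at 0.427, 0.464 and 0.458 of the FPKM of Zc3h12a in the DMSO samples and at 1.66, 1.57 and 1.89 times it in the SD70 samples. The ratio therefore crossed 1, and the log2 ratio was 1.92 higher under SD70, less than the difference of Arid5a itself since Zc3h12a was higher as well. Against Zfp36l2 the ratio went from 0.104 ± 0.00788 to 0.910 ± 0.0691 (SD, n = 3 each), a log2 difference of 3.13, which was the largest of the 8. Against Rc3h1 it went from 1.05 ± 0.0885 to 7.40 ± 0.362 (SD, n = 3 each). In each of the 8 ratios with Arid5a, the 3 SD70 samples lay above the 3 DMSO samples. The summed FPKM of the 8 decay factors was 218, 218 and 219 under DMSO, against 206, 220 and 213 under SD70. Arid5a came to between 2.73% and 3.15% of that sum under DMSO and between 20.1% and 22.8% under SD70.

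The ratios of Elavl1 showed smaller differences, and in both directions. Elavl1 stood at 1.47, 1.32 and 1.33 times Zc3h12a under DMSO and at 0.897, 0.854 and 0.909 of it under SD70, a log2 difference of -0.63. Against Zfp36l2 it went from 0.317 ± 0.00880 to 0.474 ± 0.00501 (SD, n = 3 each), a log2 difference of 0.58. Against Zfp36 and Zfp36l1 the groups overlapped, with log2 differences of 0.15 and 0.04. As a share of the summed decay factors, Elavl1 was at 9.16% ± 0.197 under DMSO and 11.0% ± 0.0566 under SD70 (SD, n = 3 each).

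**Figure D3:**
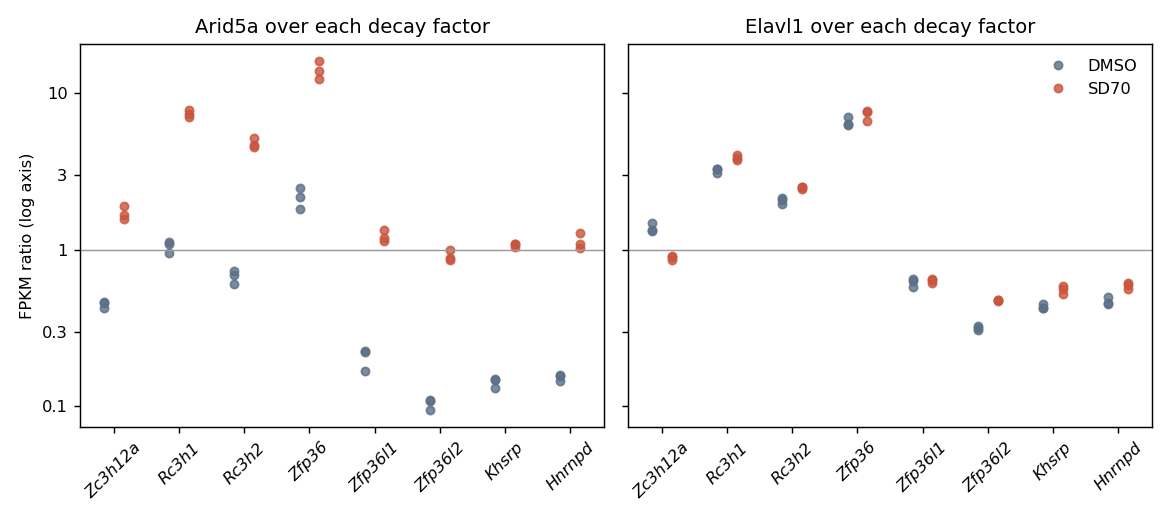
FPKM of Arid5a (left) and of Elavl1 (right) divided by that of each decay factor (log axis), with 1 point for each of the 3 DMSO and 3 SD70 samples; the grey line marks equal FPKM. The ratios of Arid5a are higher under SD70 for all 8 decay factors, and those of Elavl1 are lower for Zc3h12a and overlap for Zfp36 and Zfp36l1.

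Several of these regulators carry AU-rich elements in their own 3′ UTR, which was read from the longest protein-coding transcript of GENCODE M21 (GRCm38). The heptamer TATTTAT was found 8 times in the 3′ UTR of Elavl1, 3 times each in Rc3h2, Zfp36, Zfp36l1 and Zfp36l2, and 2 times in Rc3h1. It was found in 30.3% of the 3′ UTRs of 11314 genes tested, and 8 or more copies in 0.115%. In Arid5a, Zc3h12a, Khsrp and Hnrnpd there were 0 copies. The Arid5a 3′ UTR of 3826 bases held the pentamer ATTTA 2 times, or 0.523 per 1000 bases, against a median of 1.32 over the genes tested, and that of Zc3h12a held it 3 times in 856 bases. The 4 members without the heptamer thus included the members with the largest differences, Arid5a and Zc3h12a, and also Khsrp and Hnrnpd, which were at 0.931 and 0.948 of their DMSO level in normalized counts. An example of 30 bases from each of the 5 named genes other than Rc3h1 is given, so that the element can be seen in transcripts of these regulators, with the heptamer in capitals and DNA letters in the sense of the transcript.
Elavl1, chr8:4285787-4285816, minus strand: gtcatgaaaatTATTTATTTATTTATTTAT
Rc3h2, chr2:37374755-37374784, minus strand: tccagctgcttTATTTATctttttcattgg
Zfp36, chr7:28376965-28376994, minus strand: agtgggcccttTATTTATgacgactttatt
Zfp36l1, chr12:80108421-80108450, minus strand: ttatcaaaacgTATTTATtgccaaactatg
Zfp36l2, chr17:84184913-84184942, minus strand: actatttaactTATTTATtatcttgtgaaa
The Elavl1 example has overlapping copies of the heptamer in a row, whereas each of the other examples shows 1 whole copy within its 30 bases. Copies beyond the printed bases are not shown. A match is letters in an annotated transcript, and which 3′ ends these cells use was not measured.

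The proteins that carry out decay after recruitment were followed with lists of their genes. Of 18 genes of deadenylation, all were tested, 7 rose, 4 fell and 7 did not pass an adjusted p of 0.01 in edgeR's test, which is 38.9% higher and 22.2% lower beside 25.8% and 24.2% of all genes tested. The median log2 fold change was 0.14, against 0.00 over all genes. Tob1, an adaptor that links deadenylases to their targets, fell from 531 ± 25.1 to 291 ± 31.3 normalized counts (SD, n = 3 each; adjusted p = 3.73e-11 from edgeR). Btg2, of the same protein family, rose from 63.6 ± 6.33 to 118 ± 2.99 (SD, n = 3 each; adjusted p = 1.98e-06 from edgeR). The CCR4-NOT subunit genes Cnot11 and Cnot4 rose by 0.36 and 0.35 on the log2 scale (adjusted p = 5.80e-07 and 6.82e-06 from edgeR).

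Of 20 genes of decapping and 5′ decay, 19 were tested, of which 5 rose, 4 fell and 10 did not pass, with a median log2 fold change of 0.11. These shares, 26.3% higher and 21.1% lower, were near the 25.8% and 24.2% of all genes tested. Smg5, which acts in nonsense-mediated decay, rose by 0.41 on the log2 scale (adjusted p = 9.77e-08 from edgeR). Smg6, the endonuclease of that pathway, had a log2 difference of -0.28 (adjusted p = 0.000115 from edgeR). Dcp1b, of the decapping complex, had 0.37 (adjusted p = 0.00558 from edgeR), which was past the threshold in 5 of 14 alternatives (adjusted p from 0.00472 to 0.0252). When single samples were left out, between 3 and 6 genes of the list rose, and 3 did so without DMSO sample 2 and without SD70 sample 3.

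Of 15 genes of the RNA exosome and its helpers, the 3′ to 5′ exonuclease complex, 9 rose, 0 fell and 6 did not pass, so that 60.0% rose beside the 25.8% of all genes tested, with a median log2 fold change of 0.31. At an unadjusted p under 0.05 in edgeR 1 was lower, and at the adjusted threshold DESeq2 and limma on log2(FPKM + 0.1) each gave 0 lower and 7 higher. Exosc1, of the cap of the complex, rose in normalized counts, from 779 ± 19.5 to 1197 ± 75.2 (SD, n = 3 each; adjusted p = 9.34e-11 from edgeR). Dis3, its catalytic nuclease, rose from 1270 ± 59.1 to 1831 ± 130 (SD, n = 3 each; adjusted p = 1.29e-09 from edgeR). Ttc37, of the SKI complex that feeds RNA to the exosome, rose by 0.46, and Dis3l, a cytoplasmic nuclease of the complex, by 0.45 on the log2 scale (adjusted p = 4.76e-07 and 3.49e-05 from edgeR).

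Among 24 other proteins that bind AU-rich elements or 3′ UTRs, 19 were tested, of which 6 rose (31.6%), 3 fell (15.8%) and 10 did not pass, beside the same 25.8% and 24.2% of all genes, with a median of 0.08. Among those that rose were Tial1, an AU-rich element binding repressor of translation, with 0.31, Pcbp1, a poly(C) binding protein, with 0.28, and Hnrnpab with 0.23 on the log2 scale (adjusted p = 6.87e-06, 2.06e-05 and 0.000152 from edgeR). Among 14 relatives of Regnase-1 and ARID5A, 12 were tested, of which 4 rose (33.3%) and 4 fell (33.3%). Arid3a, a paralogue in the DNA-binding domain, fell from 422 ± 6.33 to 226 ± 5.68 normalized counts (SD, n = 3 each; adjusted p = 1.43e-11 from edgeR), and Arid4a fell by 0.53 on the log2 scale (adjusted p = 3.47e-08 from edgeR). Arid5b, the closest paralogue of Arid5a by name, had a log2 difference of 0.08 (SE 0.0602; adjusted p = 0.244 from edgeR). Zc3hav1, the zinc finger antiviral protein, rose by 0.55 and Zc3h12c, a paralogue of Zc3h12a, by 0.38 on the log2 scale (adjusted p = 3.19e-11 and 3.13e-05 from edgeR).

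Of 22 genes for kinases, proteases and adaptors that act on these regulators, 5 rose (22.7%), 5 fell (22.7%) and 12 did not pass, near the shares of all genes, with a median of -0.08. Myd88, the adaptor of Toll-like and IL-1 receptors, rose in normalized counts, from 376 ± 24.6 to 773 ± 39.9 (SD, n = 3 each; adjusted p = 1.72e-14 from edgeR). Ikbke, an IKK-related kinase, rose from 1876 ± 159 to 3674 ± 284 (SD, n = 3 each; adjusted p = 7.72e-14 from edgeR). Mapkapk2, the kinase that phosphorylates tristetraprolin, fell from 2711 ± 104 to 2112 ± 95.8 (SD, n = 3 each; adjusted p = 3.53e-07 from edgeR), and Ywhab, a 14-3-3 protein, rose by 0.32 on the log2 scale (adjusted p = 5.92e-07 from edgeR). When single samples were left out, the number that fell was between 2 and 5, and was 2 without SD70 sample 2 and 3 without DMSO sample 1 or without SD70 sample 3.

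Of 40 transcripts known as targets of the 10 regulators, 28 were tested, of which 20 rose, 2 fell and 6 did not pass, so that 71.4% of those tested rose and 7.14% fell, beside 25.8% and 24.2% of all genes, with a median log2 fold change of 1.43 against 0.00 over all genes. The list was written with earlier results of these samples known, so its count is not independent evidence of a direction. Icam1 and Il1a, with at most 7 counts in any DMSO sample, passed the filter only through the SD70 samples, and with at least 10 counts required in every sample 18 rose. Csf2, the gene of GM-CSF, rose in normalized counts, from 101 ± 4.34 to 2219 ± 201 (SD, n = 3 each; adjusted p = 1.58e-30 from edgeR), and its 3′ UTR of 317 bases holds the heptamer 9 times. Cxcl5, Ccl20 and Cxcl3, chemokine genes, rose by 3.15, 3.08 and 3.07 on the log2 scale (adjusted p = 8.27e-16, 1.58e-30 and 6.88e-24 from edgeR). Their 3′ UTRs hold the heptamer 1, 1 and 2 times. It was found 0 times in Ccl2 and 7 times in Cxcl2, which rose by 2.03 and 2.57 (adjusted p = 1.85e-27 and 5.54e-25 from edgeR). A link between copies and rise was not tested in this list.

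Further targets of ARID5A or of the decay factors were named after their values were seen. Il6 had 1, 3 and 3 counts under DMSO, against 10, 7 and 3 under SD70, too few to pass the filter, and Tnf had 0, 0 and 0 under DMSO, against 5, 5 and 6 under SD70. Stat3 fell from 1731 ± 52.2 to 1313 ± 34.4 normalized counts (SD, n = 3 each; adjusted p = 9.44e-08 from edgeR). Tbx21 had at most 1 count in any sample, and Tnfrsf4 had between 5 and 14. Nfkbiz, also a target of Regnase-1, rose in normalized counts, from 2228 ± 87.2 to 6871 ± 330 (SD, n = 3 each; adjusted p = 7.54e-24 from edgeR). Ier3, whose mRNA Regnase-1 and tristetraprolin are known to degrade, had a log2 difference of 0.08 (adjusted p = 0.149 from edgeR) at 14953 ± 896 normalized counts under DMSO (SD, n = 3). Lif, with the heptamer 5 times in its 3′ UTR, had -0.13 (SE 0.115; adjusted p = 0.362 from edgeR). Tfrc, a transcript bound by Regnase-1 and the roquins, had 0.04 (SE 0.0518; adjusted p = 0.501 from edgeR), and Plaur and Nfkbid also did not pass. The other gene that fell was Socs3, with -0.36 (SE 0.0952; adjusted p = 0.00146 from edgeR), which was past the threshold in 12 of 14 alternatives (adjusted p from 0.000216 to 0.0151) and not without SD70 sample 1 or without SD70 sample 2. With the replicate number as a block, Nos2 was also past the threshold, so that 3 of the targets fell (adjusted p = 0.00854 for Nos2, against 0.0799 without the block, from edgeR, and from 4.42e-06 to 0.223 over 14 alternatives).

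**Figure D4:**
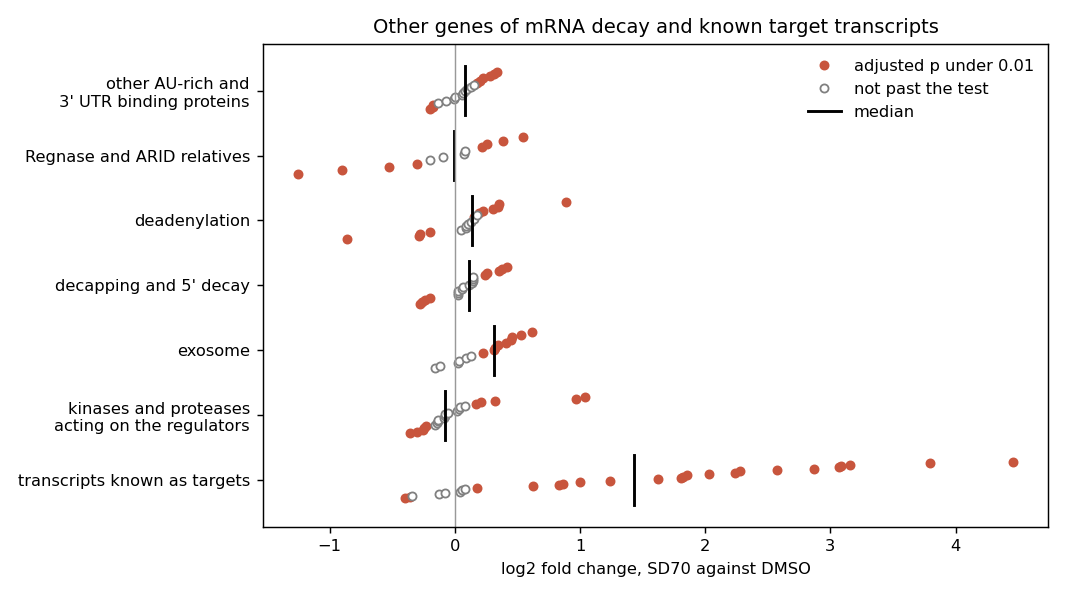
log2 fold change of SD70 against DMSO for each tested gene of 7 lists, from edgeR's fit of all genes; filled points passed an adjusted p of 0.01, open points did not, and black bars are medians. The list medians run from -0.08 for kinases and proteases to 1.43 for known targets, and the exosome list has 9 filled points, all above 0.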

How the data were processed

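RNA-seq was measured in 3 DMSO and 3 SD70 samples of Lewis cells, grouped by their titles. The authors selected mRNA with oligo(dT) beads, per the labels, sequenced on the BGISEQ-500 platform and aligned clean reads to GRCm38.p6 with HISAT, per the paper's methods. The submitters' processing notes list StringTie 1.3.3b and a build mm8, which differs from the build in the paper. Each sample has a table deposited by the authors that pairs every gene's expected count, without normalization, with an FPKM value. The header does not name FPKM as the unit, which was taken from the values, since count, library size and value together gave nearly 1 transcript length per member in all 6 samples. The counting tool is not given in the sources used here.

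Expected counts were rounded, filtered with filterByExpr, scaled by TMM (factors from 0.984 to 1.02) and tested by edgeR 4.0.16 (glmQLFit with the robust option, then glmQLFTest; R 4.3.3), with Benjamini-Hochberg adjustment over 11552 genes. The thresholds were an adjusted p of 0.01 and, where stated, a log2 fold change of 1. The paper uses the same values without saying whether its p was adjusted. With 3 samples a group precision is low, and counting error adds to it for Zfp36, Il6 and Tnf.

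The members and lists were chosen with earlier results of these data known. Named genes were all 10 members, up to 4 genes per list with the largest absolute log2 fold change past the adjusted p and a mean of at least 50 normalized counts, and the 3 genes with the highest Pearson r with Arid5a. Neighbours of Arid5a and further targets were named after their values were seen, and Arid5b and some of the cell type markers were also named outside the rule. Some genes that the rule names are not reported here.

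Samples with the same replicate number in the labels deviated together weakly (Pearson r of 0.117, 0.167 and 0.136 over 10268 genes, against -0.131 to -0.0107 for other pairs). Deviations were taken from the group mean, which ties these values to each other. The titles give numbers alone, so whether the samples were paired is not settled. The fit reported has no block, and a block for the replicate number was used as an alternative. Samples of a group differed by more than counting noise (chi-square of 2.12 to 4.97 per gene). Alternatives were other scalings, filters, the replicate block, each sample left out, DESeq2 1.42.0, and limma 3.58.1 on log2(FPKM + 1) and log2(FPKM + 0.1). On simulated data edgeR, with both thresholds applied, recovered 200 of 200 well-counted genes changed by 2 on the log2 scale among 11518 tested, with 0 false calls. Smaller changes and calls by the adjusted p alone were not simulated, so the simulation does not give the error rate of such calls.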

Additional observations from a re-analysis of the deposited data

How the results depend on the processing

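The log2 fold change of Arid5a was 2.60 on log2(FPKM + 1), which compresses low values, and ranged from 2.74 to 2.86 when single samples were left out. No member that had passed the adjusted p changed direction in any alternative. Over 14 alternatives Zc3h12a ranged from 0.81 to 0.92, Elavl1 from 0.21 to 0.29 and Zfp36l2 from -0.36 to -0.29. With normalized counts in place of FPKM no ratio moved beyond its spread. Library scaling cancels in a ratio within a sample, and the implied transcript lengths hardly varied, so that outcome was given in advance. The ratios are nevertheless counted among the 1403 alternative values below. With limma on both FPKM scales 4 members were past the adjusted p, without Zfp36l1. On log2(FPKM + 1), 283 genes were past both thresholds, against 681. Of the genes of decapping and 5′ decay, 2 rose on log2(FPKM + 1) and 2 on log2(FPKM + 0.1), and between 3 and 6 when single samples were left out. In the exosome list 1 gene fell with library totals alone and 1 at an adjusted p under 0.05. Of the kinases and proteases, 3 fell with DESeq2 and between 2 and 5 in those runs. Of the targets, between 1 and 3 fell in those runs. The causes were not tested. In all, 1351 of 1403 alternative values were close to the value reported, which meant within the spread between samples for the members' fold changes and ratios (whatever the call), within 1.5 times for counts, and on the same side of the threshold for the other named genes (with the same sign where called). With a block for the replicate number, Arid5a was again at 2.81, 692 genes were past both thresholds, 5 members were past the adjusted p, and of the named genes the call of Nos2 changed. Depth limits the values of Zfp36, Il6, Tnf and Tbx21.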

Other observations

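AU-rich heptamers were also counted over all genes tested with an annotated 3′ UTR, in an examination chosen after the data were seen and given with no test. Among 3′ UTRs of 1000 to 3000 bases, 28.3% of the 2752 genes without TATTTAT were higher with SD70 at an adjusted p of 0.01 from edgeR and 25.1% were lower. Of the 1118 genes with 1 copy 28.1% were higher and 25.5% lower. Of the 363 genes with 2 copies 31.1% were higher and 19.8% lower, and of the 162 genes with 3 or more copies 37.0% were higher and 22.8% lower. For genes that were higher, the share past a log2 fold change of 1 was 3.38% without the heptamer, 3.76% with 1 copy, 6.34% with 2 and 6.17% with 3 or more, and for genes that were lower it was 2.83%, 2.86%, 2.20% and 2.47%. The median log2 fold change was 0.01 without the heptamer, 0.01 with 1 copy, 0.04 with 2 and 0.06 with 3 or more copies, and the median 3′ UTR length was 1646 bases without it and 2030 with 3 or more.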
